A study of Mus musculus with 9 samples.

Results

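The dolichol-linked N-glycan precursor enzymes were followed here through 10 genes, Dpagt1, Alg13, Alg1, Alg2, Alg9, Alg12, Alg6, Alg8, Alg10b and Alg5, taken in the order in which their products act. They were found by matching the RefSeq accession in each probe set's identifier to mouse genes, and all 10 were on the array with 1 probe set each, out of 909 named genes and 1246 probe sets. Expression had been measured on 9 Affymetrix arrays, a custom single-colour design (GLYCOv4) with mainly glycosylation genes and genes of lectins, cytokines and their receptors. Each array held RNA of CD8 T cells purified from female B10D2 mice, and the cells of all groups carried a transgenic T cell receptor. Deletion cells had been stimulated in vivo by a weak signal of their antigen (3 arrays), anergy cells by a strong signal of it (3 arrays), and naive cells were the unstimulated control (3 arrays). The receptor, the antigen, its dose, the time of stimulation and the age of the mice are not stated in the labels. Nor do the labels say whether replicates were different mice, so p-values here reflect only sample-to-sample spread, part or all of which may be technical.

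N-glycans are built in advance on a lipid, dolichol phosphate, in the membrane of the endoplasmic reticulum (ER). Sugars are first added on the cytosolic side from sugar nucleotides, then the lipid-linked chain is turned over into the lumen, extended with mannose and capped with glucose from dolichyl-phosphate donors. The oligosaccharyltransferase then moves the finished chain to asparagine residues of new proteins. In T cells N-glycans are carried by the antigen receptor, its coreceptors and many cytokine receptors.

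Anergy cells differed from naive cells in 9 of the 10 genes, where 26.8% of all probe sets passed, and deletion cells in 4 of the 10, where 19.0% did. No gene of the 10 passed between deletion and anergy, where 3.37% of all probe sets did. The count in deletion was 1 to 9 when 1 array was left out, so it does not show that fewer genes changed there. The changes did not run one way along the pathway. Transcripts of the enzymes that start the chain, Dpagt1 and Alg13, and of enzymes that cap it with glucose, Alg8 and Alg10b, were higher in anergy than in naive cells, by 1.41-fold to 1.49-fold (n = 3 arrays per group). So was that of Alg6, another glucosyltransferase, but at values near the lowest of the arrays. Transcripts of the mannosyltransferases Alg1, Alg2 and Alg12 and of Alg5, which makes the glucose donor, were lower, by 1.24-fold to 2.01-fold. Of these falls only that of Alg1 held in every fit tried. Without anergy replicate 3 there were 2 falls beside 5 rises. In deletion cells Dpagt1 and Alg6 were higher and Alg1 and Alg2 lower than in naive cells, and the other members did not pass.

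Values are on the log2 scale after robust multi-array averaging (RMA) by the authors, so a difference of 1 is 2-fold. The error of a change is its standard error (SE), and that of a group mean is the standard deviation of its 3 arrays (SD). A gene was said to rise, fall or pass where the p-value of limma, adjusted by Benjamini-Hochberg over all 1246 probe sets of a comparison, was under 0.05. Where a call is followed over 18 settings, these are the reported fit, 8 fits with another processing and 9 fits without 1 array, and a limit of 2-fold on the change is given apart from them. Between deletion and naive 19.0% of all probe sets passed (8.51% higher and 10.5% lower in deletion), between anergy and naive 26.8%, and between deletion and anergy 3.37% (2.09% higher and 1.28% lower in deletion). At an unadjusted p under 0.05 the precursor genes numbered 8 of 10 in deletion against naive, where 27.4% of all probe sets reached it, and 10 of 10 in anergy against naive, where 34.1% did. Among the brighter probe sets that remained when the dimmest 33.3% were left out, 37.9% passed between anergy and naive and 27.9% between deletion and naive. Of the precursor genes only Alg6 was among those left out. Beside the 5 rises and 4 falls of the precursor genes in anergy, 10.8% of all probe sets rose and 16.1% fell.

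The array of anergy replicate 3 stood apart, with a residual SD of 0.203 over all probe sets against 0.116 to 0.157 on the other 8 arrays. It gave the lowest of the 3 anergy values for 10 of the 10 precursor genes, and for 38.4% of all probe sets (72.2% of those with a mean above 5). Within-group SDs of the 10 genes were 0.03 to 0.17 in deletion, 0.12 to 0.29 in anergy and 0.04 to 0.22 in naive. Results that rest on this array are given below with and without it. Cd2, the one measured gene of 6 T cell identity markers, was at 10.01 ± 0.32 in deletion, 9.40 ± 0.08 in anergy and 11.58 ± 0.08 in naive cells (SD, n = 3 each). It fell by 1.57 in deletion (2.97-fold lower, adjusted p = 1.7e-05) and by 2.18 in anergy (4.53-fold lower, adjusted p = 1.04e-06) against naive, with no overlap of the arrays. The CD8 chains were not among the named probe sets. Cks1b and Cks2, which bind cyclin-dependent kinases, were higher than in naive cells by 3.14 and 3.18 in deletion and by 3.38 and 3.38 in anergy. Summed levels (log2 of the summed linear values) of 4 measured B cell markers of 9 listed were 8.66 to 9.17 in deletion, 8.55 to 8.76 in anergy and 9.25 to 9.41 in naive cells. These 4 did not move together: Cd72 fell (-1.56 in deletion and -1.64 in anergy), Cd22 rose (1.17 in deletion and 0.98 in anergy), Cxcr5 rose in deletion (0.64), and Fcer2a did not pass. Summed levels of 6 measured macrophage and dendritic cell markers of 11 listed were 7.33 to 7.57 in deletion, 7.35 to 7.41 in anergy and 7.68 to 7.75 in naive cells. Of these 6 only Ly75 passed (-0.60 in deletion and -0.65 in anergy). In each comparison with naive 2 of the 6 were higher and 4 lower. Summed levels of 3 measured endothelial and platelet markers of 4 listed were 8.94 to 9.13 in deletion, 8.18 to 8.50 in anergy and 8.59 to 8.70 in naive cells. Of these 3 only Pecam1 passed, higher in deletion (0.43) and lower in anergy (-0.30). The part of dividing cells or of other cell types in the results was not tested. In RNA of whole cell populations, fewer cells that express a gene and less of its RNA per cell cannot be told apart.

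Promoter sequence is shown for 5 members that moved in anergy: the glucosyltransferases Alg6, Alg8 and Alg10b, which rose together, and the mannosyltransferases Alg1 and Alg12, which fell. The fall of Alg1 passed in 18 of 18 settings, but that of Alg12 in only 7 of 18. Each run is the 250 bases before the gene's start from RefSeq (GRCm38.p6), written 5′ to 3′ on the gene's own strand. Such a sequence was found for 8 of the 10 genes. Capitals mark matches on either strand to the GC box GGGCGG, the CCAAT box CCAAT and the ER stress element, which reads CCAAT, then any 9 bases, then CCACG (capitals on its fixed letters), and whose first letters are also a CCAAT box.
Alg6 promoter, chr4:99715380-99715629, plus strand: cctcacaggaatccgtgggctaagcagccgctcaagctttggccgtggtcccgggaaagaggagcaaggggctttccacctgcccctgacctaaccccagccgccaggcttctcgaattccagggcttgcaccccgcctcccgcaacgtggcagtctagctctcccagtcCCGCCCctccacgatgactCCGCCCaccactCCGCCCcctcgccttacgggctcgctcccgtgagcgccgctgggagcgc
Alg8 promoter, chr7:97371367-97371616, plus strand: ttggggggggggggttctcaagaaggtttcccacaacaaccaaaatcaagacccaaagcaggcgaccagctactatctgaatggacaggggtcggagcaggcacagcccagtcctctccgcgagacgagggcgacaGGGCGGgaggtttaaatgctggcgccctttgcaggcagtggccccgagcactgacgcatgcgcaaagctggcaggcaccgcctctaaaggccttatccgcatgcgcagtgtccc
Alg10b promoter, chr15:90224061-90224310, plus strand: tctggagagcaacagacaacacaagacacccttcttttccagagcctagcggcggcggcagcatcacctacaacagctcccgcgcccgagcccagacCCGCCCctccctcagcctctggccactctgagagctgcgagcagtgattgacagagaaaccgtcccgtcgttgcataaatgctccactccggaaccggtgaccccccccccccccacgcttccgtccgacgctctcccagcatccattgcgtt
Alg1 promoter, chr16:5233371-5233620, plus strand: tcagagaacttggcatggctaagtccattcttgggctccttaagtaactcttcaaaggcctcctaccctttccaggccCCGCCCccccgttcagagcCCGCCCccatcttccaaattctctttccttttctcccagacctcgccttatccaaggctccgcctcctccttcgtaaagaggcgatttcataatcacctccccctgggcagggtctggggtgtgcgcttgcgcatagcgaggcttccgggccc
Alg12 promoter, chr15:88819319-88819568, minus strand: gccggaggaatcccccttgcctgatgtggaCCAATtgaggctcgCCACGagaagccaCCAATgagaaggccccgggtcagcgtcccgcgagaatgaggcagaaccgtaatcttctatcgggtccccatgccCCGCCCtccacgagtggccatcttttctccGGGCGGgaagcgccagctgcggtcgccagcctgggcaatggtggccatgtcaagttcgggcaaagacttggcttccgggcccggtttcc

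All 5 windows held at least 1 GC box, with 3 in Alg6, 2 in Alg1, 2 in Alg12 and 1 each in Alg8 and Alg10b, and 32.7% of all 32851 promoter windows of this length held one. Of the 8 windows found for the precursor genes 6 held it, the exceptions being Alg13 and Alg9. Genes that rose and genes that fell were among those with it. In the 5 printed windows 58.0% to 68.0% of bases were G or C, and the share over all windows was not matched for this. Part of the contrast may lie in base content, which was not tested. The Alg12 window held 2 CCAAT boxes, found in 33.8% of all windows, and the first of them, 220 bases before the start, belonged to a full ER stress element, found in 0.113% of all windows. None of the other 4 printed windows, and none of those of Alg13, Alg9 and Alg5, had that element. The E-box CACGTG (6.02% of all windows) and the core TGACGT (6.47%) were in none of the 8. The next annotated gene beyond the Alg12 start was Creld2, known in mouse as an ER stress gene, which was not among the named probe sets. These matches describe the letters of a window and are not binding sites.

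The chain is started by Dpagt1, the target of tunicamycin, which joins GlcNAc phosphate to dolichol phosphate. Its log2 values were 7.61, 7.66 and 7.61 in deletion replicates 1 to 3, 7.86, 7.86 and 7.66 in anergy replicates 1 to 3, and 7.34, 7.37 and 7.10 in naive replicates 1 to 3. All stimulated arrays lay above all naive arrays, and the deletion and anergy arrays met at 7.66. Dpagt1 rose by 0.36 ± 0.09 in deletion against naive (SE; 1.28-fold, 95% limits 1.12 to 1.47; adjusted p = 0.0154) and by 0.52 ± 0.09 in anergy against naive (1.44-fold, 1.26 to 1.64; adjusted p = 0.0011). The rise in deletion passed in 14 of 18 settings and did not hold with median centring (adjusted p = 0.0571), with no moderation (0.0521), without deletion replicate 2 (0.056) or without naive replicate 3 (0.053).

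Alg13, the catalytic subunit of the transferase that adds the second GlcNAc together with Alg14, was among the dimmer members. It gave 4.22, 4.29 and 4.46 in deletion, 4.38, 4.78 and 4.22 in anergy and 3.96, 3.92 and 3.86 in naive replicates 1 to 3. Both stimulated groups stood above the naive arrays, and the anergy arrays were spread the most widely of any member (SD 0.29). The rise was 0.55 ± 0.13 in anergy against naive (SE; adjusted p = 0.00923). In deletion the difference from naive was 0.41 ± 0.13 and did not pass (adjusted p = 0.0526), although its 95% limits were 0.12 to 0.70. It passed in 6 of 18 settings, among them the fit without anergy replicate 3 (adjusted p = 0.0271).

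**Figure D1:**
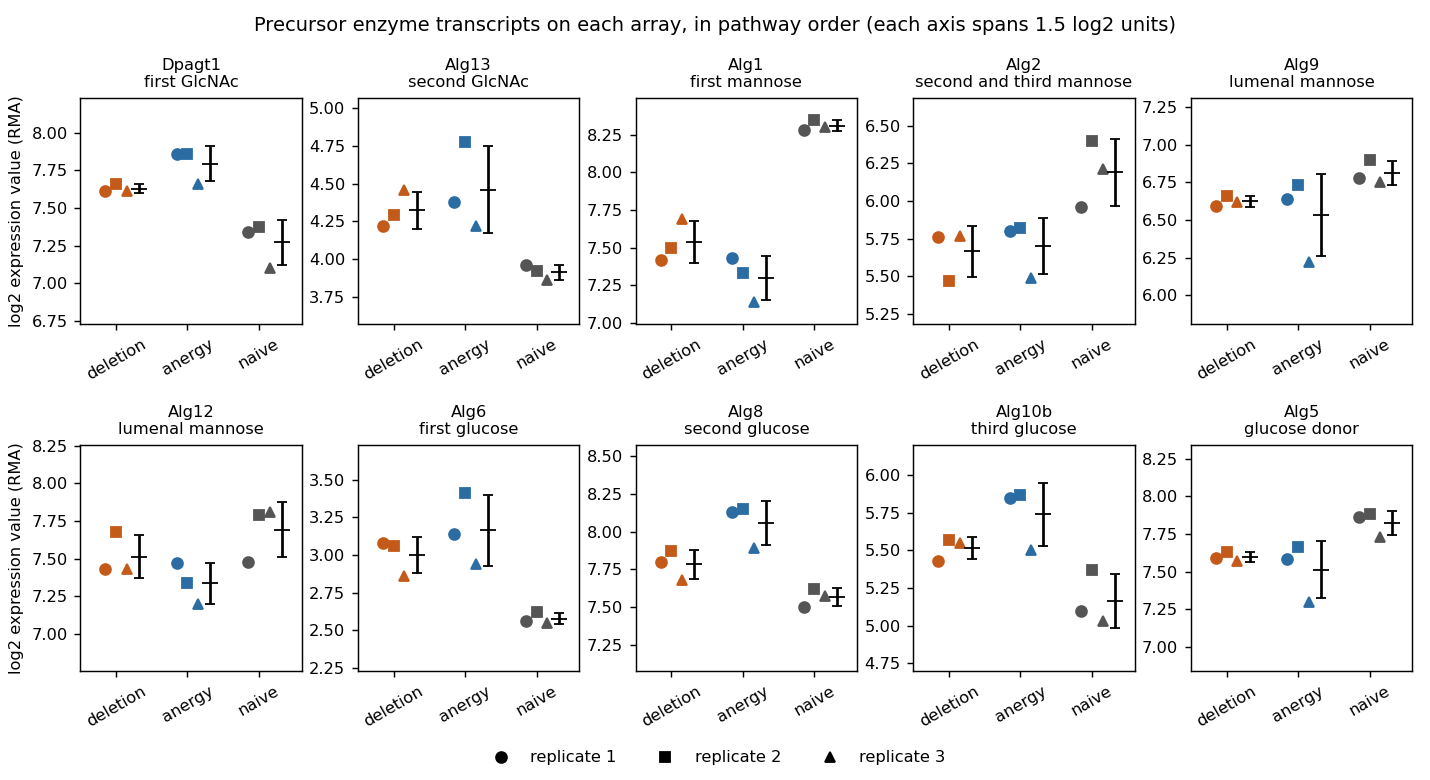
Log2 expression values (y axis) of the 10 precursor enzyme genes in pathway order, with 1 symbol per array (circle, square and triangle for replicates 1, 2 and 3), deletion in orange, anergy in blue and naive in grey, and a black bar for the mean and SD of each group of 3. Dpagt1, Alg13, Alg6, Alg8 and Alg10b lie above naive in both stimulated groups, Alg1 lies furthest below it, and the triangle of anergy replicate 3 is the lowest anergy point in all 10 panels.

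The cytosolic mannose steps went the other way. Alg1, which adds the first mannose, gave 7.42, 7.5 and 7.69 in deletion, 7.43, 7.33 and 7.14 in anergy and 8.28, 8.35 and 8.30 in naive replicates 1 to 3. The naive arrays lay close together and well above every stimulated array. Alg1 fell by 0.77 ± 0.09 in deletion against naive (SE; 1.71-fold lower, 95% limits 1.48 to 1.97; adjusted p = 0.000182). In anergy against naive it fell by 1.01 ± 0.09 (2.01-fold lower, 1.75 to 2.32; adjusted p = 1.88e-05), the largest change of any member and the only one of at least 2-fold. Both calls held in all 18 settings, with changes of -0.85 to -0.67 in deletion and -1.07 to -0.84 in anergy.

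Alg2, which adds the next mannose residues on the same side of the membrane, fell too. Its values were 5.76, 5.47 and 5.77 in deletion, 5.80, 5.82 and 5.49 in anergy and 5.96, 6.40 and 6.21 in naive replicates 1 to 3, so the naive arrays were higher but more spread than for Alg1. The change was -0.52 ± 0.13 in deletion against naive (SE; adjusted p = 0.0204) and -0.49 ± 0.13 in anergy against naive (adjusted p = 0.022). Each call held in 14 of 18 settings. The anergy call was lost without anergy replicate 3 (-0.38, adjusted p = 0.0797), naive replicate 2 (0.0916) or naive replicate 3 (0.065) and with no moderation (0.0857). The deletion call was lost without deletion replicate 2 (adjusted p = 0.083), naive replicate 2 (0.0829) or naive replicate 3 (0.0671) and with no moderation (0.0913). Alg2 was the one member whose deletion mean did not lie between those of anergy and naive.

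In the lumen Alg9 and Alg12 add further mannose from dolichyl-phosphate mannose, and their changes were smaller. Alg9 gave 6.59, 6.66 and 6.62 in deletion, 6.64, 6.73 and 6.22 in anergy and 6.78, 6.90 and 6.75 in naive replicates 1 to 3. Naive arrays were the highest in each comparison, but one anergy array lay far below the other two. The changes of -0.19 ± 0.12 in deletion against naive (SE; adjusted p = 0.391) and -0.28 ± 0.12 in anergy against naive (adjusted p = 0.123) did not pass, and the deletion one passed in 1 setting of 18, without anergy replicate 3 (adjusted p = 0.0496), and the anergy one in 1, without anergy replicate 2 (-0.38, adjusted p = 0.0457). Without anergy replicate 3 the anergy change was -0.12 (adjusted p = 0.215). Alg12 gave 7.43, 7.68 and 7.43 in deletion, 7.47, 7.34 and 7.20 in anergy and 7.48, 7.79 and 7.81 in naive replicates 1 to 3. Its deletion and naive arrays overlapped, and its highest anergy array was just under the lowest naive one. Alg12 fell in anergy against naive, at -0.36 ± 0.11 (SE; adjusted p = 0.0414), a call held in 7 of 18 settings. The call was lost in the other 11, among them quantile normalization (-0.19, adjusted p = 0.176), array weights (-0.30, adjusted p = 0.0611) and the fits without anergy replicate 3 (-0.29, adjusted p = 0.133), anergy replicate 2 (0.0939), deletion replicate 1 (0.0572), deletion replicate 3 (0.0534), naive replicate 2 (0.142) or naive replicate 3 (0.148). In deletion the change was -0.18 ± 0.11 and did not pass in any of 18 settings.

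The glucose cap is the signal by which the oligosaccharyltransferase prefers the finished chain, and its enzymes rose together in anergy. Alg6, which adds the first glucose, gave 3.08, 3.06 and 2.86 in deletion, 3.14, 3.41 and 2.94 in anergy and 2.56, 2.62 and 2.55 in naive replicates 1 to 3. Every stimulated array lay above every naive array. These values are near the lowest of the arrays (1.67), and whether they lie above background was not tested, so the size of the change is uncertain. Alg6 rose by 0.42 ± 0.11 in deletion against naive (SE; adjusted p = 0.0234) and by 0.59 ± 0.11 in anergy against naive (1.5-fold, 95% limits 1.26 to 1.79; adjusted p = 0.00268). The deletion call held in 10 of 17 settings and the anergy call in 17 of 17. The deletion call was lost after median centring, with no moderation and without deletion replicate 1, deletion replicate 2 or any 1 naive array, with adjusted p of 0.0549 to 0.0898 there.

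Alg8, which adds the second glucose, was the brightest of these enzymes. It gave 7.80, 7.87 and 7.68 in deletion, 8.13, 8.15 and 7.89 in anergy and 7.5, 7.62 and 7.57 in naive replicates 1 to 3. The 3 groups did not overlap at all, with deletion in the middle. The rise in anergy against naive was 0.49 ± 0.08 (SE; 1.41-fold, 95% limits 1.23 to 1.61; adjusted p = 0.00141). In deletion the difference from naive was 0.22 ± 0.08 and did not pass (adjusted p = 0.121). It passed in 3 of 18 settings: after quantile normalization (0.35, adjusted p = 0.00165), with array weights (adjusted p = 0.0313) and without anergy replicate 3 (adjusted p = 0.0359).

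Alg10b, which adds the last glucose, gave 5.43, 5.57 and 5.55 in deletion, 5.85, 5.87 and 5.50 in anergy and 5.10, 5.37 and 5.03 in naive replicates 1 to 3. Both stimulated groups lay above naive, and anergy replicate 3 fell among the deletion arrays. Alg10b rose by 0.57 ± 0.12 in anergy against naive (SE; adjusted p = 0.0042), and by 0.69 without anergy replicate 3 (adjusted p = 0.00117). The deletion difference from naive, 0.35 ± 0.12, did not pass (adjusted p = 0.0701), and it passed in 4 of 18 settings, with a replicate block, with array weights and without anergy replicate 3 or naive replicate 2.

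Alg5 makes dolichyl-phosphate glucose, the donor that Alg6, Alg8 and Alg10b use, and it did not move with them. Its values were 7.59, 7.63 and 7.57 in deletion, 7.58, 7.66 and 7.30 in anergy and 7.86, 7.88 and 7.73 in naive replicates 1 to 3, with all naive arrays above all others. Alg5 fell in anergy against naive, at -0.31 ± 0.09 (SE; 1.24-fold lower, 95% limits 1.07 to 1.43; adjusted p = 0.0322), a call held in 11 of 18 settings. Without anergy replicate 3 the call held, at -0.20 (adjusted p = 0.044). It was lost after quantile normalization (-0.12, adjusted p = 0.0808), with an intensity trend (0.0588), in the fit to only the 2 groups (0.0792) and with no moderation (0.0796). It was also lost without deletion replicate 1 (0.0522), naive replicate 1 (0.1) or naive replicate 2 (0.109). In deletion against naive the change of Alg5 was -0.23 ± 0.09 and did not pass (adjusted p = 0.141). It passed there in 3 of 18 settings, with array weights (0.0232), in the fit to only the 2 groups (0.0302) and without anergy replicate 3 (0.0202), and quantile normalization moved it to -0.12.

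**Figure D2:**
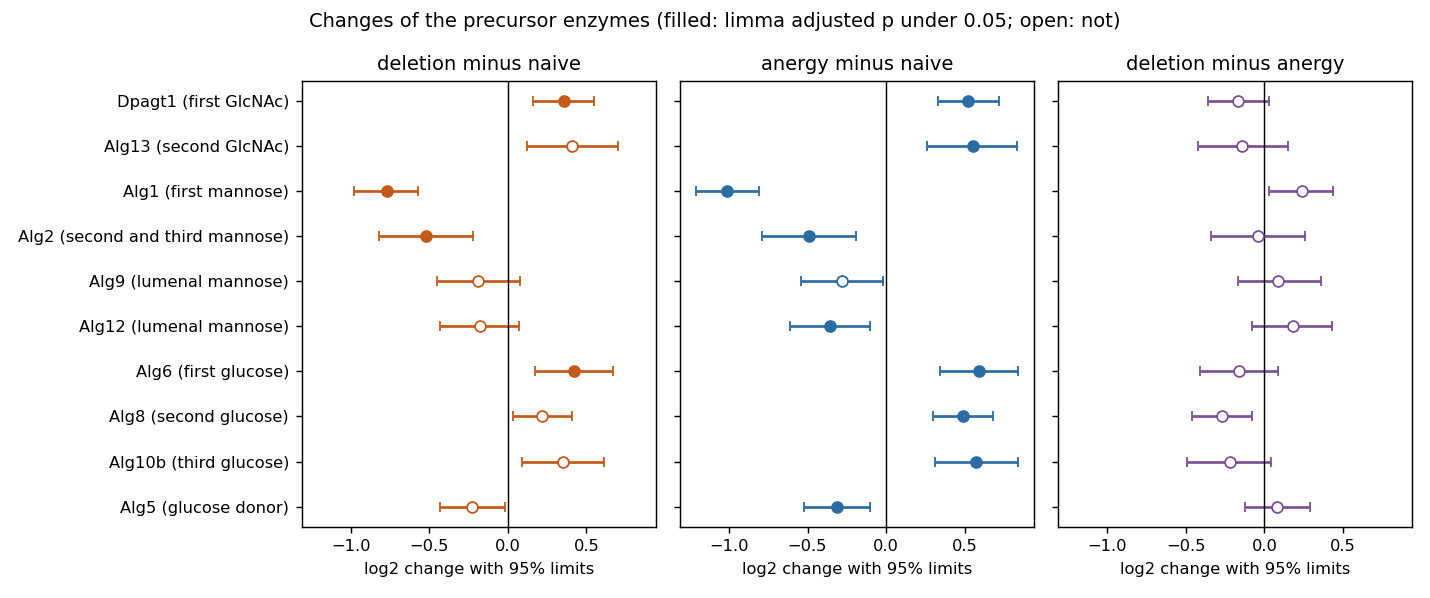
Log2 changes with 95% limits (x axis) of the 10 genes in pathway order (y axis) for deletion minus naive, anergy minus naive and deletion minus anergy, with filled points where limma's adjusted p was under 0.05. Changes range from -0.77 to 0.42, from -1.01 to 0.59 and from -0.27 to 0.24 in the 3 panels, with 4, 9 and 0 filled points.

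Over all 10 genes the median size of the change, without its sign, was 0.35 in deletion against naive and 0.51 in anergy against naive, beside 0.09 and 0.12 over all probe sets. The signed medians were 0.02 and 0.11, beside -0.02 and 0.01 over all probe sets, because 5 genes were higher and 5 lower in each comparison. The arrays of stimulated and naive cells did not overlap for 9 of 10 genes in deletion, where 31.5% of all probe sets did not overlap, and for 10 of 10 in anergy, where 33.9% did not. The 2 comparisons share the naive arrays, so they are not independent of each other. The deletion mean lay between the anergy and naive means for 9 of 10 genes, and for 49.8% of all probe sets. The precursor genes were brighter than most probe sets: 8 of 10 had a mean above 5, against 522 of 1246. These medians and shares were not computed for bright probe sets alone, so part of each contrast may lie in brightness, which was not tested.

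The count of 4 in deletion rested on few arrays. It became 9 without anergy replicate 3 (5 rises and 4 falls, with 21.4% of all probe sets passing), 8 with array weights and 2, both of them falls, after median centring. It was 1 without deletion replicate 2 and 1 without naive replicate 3, and this gene was Alg1. In anergy the 5 rises held in each of these fits in which their genes were tested, and of the falls that of Alg1 did, but with a 2-fold limit only the fall of Alg1 was left. The smaller count in deletion therefore does not show that fewer of these genes changed there.

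**Figure D3:**
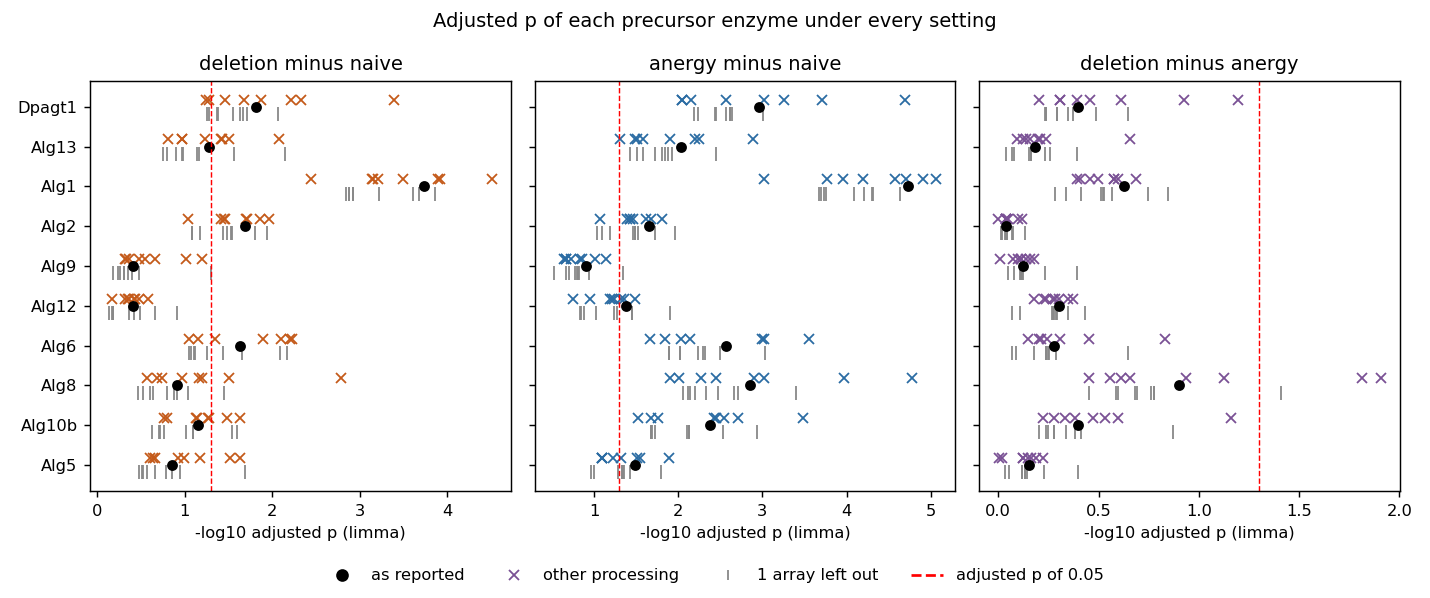
Adjusted p of limma as -log10 (x axis, larger is smaller p) for each gene (y axis) in the 3 comparisons, with the reported value as a black circle, other processing as crosses, fits without 1 array as grey ticks and the 0.05 threshold as a red dashed line. In anergy minus naive all marks of Dpagt1, Alg13, Alg1, Alg6, Alg8 and Alg10b lie right of the line, and in deletion minus naive this holds for Alg1 alone.

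Deletion against anergy is the comparison that the study's design named as its purpose. By limma 0 of the 10 genes passed, 2 had an unadjusted p under 0.05 (Alg8 and Alg1), and 15.1% of all probe sets had one. Alg8 was lower in deletion by 0.27 on the log2 scale (change -0.27 ± 0.08, SE; 95% limits -0.46 to -0.08; unadjusted p = 0.00962, adjusted p = 0.125), and it was the one member whose deletion and anergy arrays did not overlap, as for 16.6% of all probe sets. It passed after quantile normalization (-0.33, adjusted p = 0.0124), with array weights (-0.34, adjusted p = 0.0153) and without anergy replicate 3 (-0.36, adjusted p = 0.0389), and in none of the other 15 settings. Alg1 was higher in deletion by 0.24 ± 0.09 (95% limits 0.03 to 0.44; adjusted p = 0.236). The other changes were -0.22 ± 0.12 for Alg10b, -0.17 ± 0.09 for Dpagt1, -0.16 ± 0.11 for Alg6, -0.14 ± 0.13 for Alg13 and -0.04 ± 0.13 for Alg2. They were 0.18 ± 0.11 for Alg12, 0.09 ± 0.12 for Alg9 and 0.08 ± 0.09 for Alg5, and without anergy replicate 3 the last pair were -0.06 for Alg9 and -0.02 for Alg5. Over the 10 genes the 95% limits reached from -0.49 to 0.44, so a difference beyond these bounds lay outside the limits of each gene taken singly. A fit with the replicate number as a block also gave 0 of 10.

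Genes of the neighbouring steps gave mixed changes. Alg3, Alg11 and Alg14, which also act on the chain itself, were not among the named probe sets. Of 9 genes that supply dolichol and its sugar phosphates, Dpm1 and Dpm2, subunits of the synthase of dolichyl-phosphate mannose, were measured. Dpm2 rose in deletion against naive (8.95 ± 0.06 against 8.69 ± 0.02, SD, n = 3 each; adjusted p = 0.0327) and was at 8.74 ± 0.12 in anergy, where it did not pass. The call in deletion held in 10 of 18 settings and was lost with median centring, an intensity trend or no moderation and without deletion replicate 1, deletion replicate 2 or any 1 naive array (adjusted p up to 0.116). Dpm1 changed by -0.01 in deletion and -0.03 in anergy, neither past the threshold.

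Of 12 listed genes of the oligosaccharyltransferase 4 were measured. Ddost, a subunit of its core complex, rose in anergy against naive (8.01 ± 0.15 against 7.60 ± 0.15, SD, n = 3 each; change 0.41 ± 0.10, SE; adjusted p = 0.0089), a call held in 18 of 18 settings. In deletion its mean was 7.81 ± 0.07 and it did not pass. Rpn2 gave changes of -0.13 in deletion and 0.10 in anergy, Rpn1 of -0.08 in deletion and -0.11 in anergy, and none of them passed, nor did Dad1. The median change of these 4 genes was -0.04 in deletion and 0.05 in anergy. Rpn1 (mean 3.46 over the 9 arrays) and Dad1 (3.48) were dim, and both were left out with the dimmest 33.3% of probe sets. Whether they lie above background was not tested, so their small changes do not show that these genes were unchanged. Among 17 genes of trimming and quality control in the ER, Ganab, Uggt1, Uggt2 and the lectin chaperone calnexin (Canx) were measured, and 0 of 4 passed in either comparison with naive. At an unadjusted p under 0.05 there was 1 of 4 in deletion and 0 of 4 in anergy. Uggt2 was dim too (mean 2.95). Canx was at 6.59 ± 0.12 in deletion, 6.91 ± 0.17 in anergy and 6.85 ± 0.12 in naive cells.

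All 14 listed genes that make the sugar nucleotide donors were measured. In deletion against naive 3 rose, 2 fell and 9 did not pass, where 19.0% of all probe sets passed. In anergy against naive 3 rose, 1 fell and 10 did not pass, so the share that passed was close to the 26.8% of all probe sets. Pgm3, among those that did not pass, was dim (mean 2.65). Pmm1, a phosphomannomutase on the way to GDP-mannose, rose by 0.78 ± 0.13 in deletion (SE; 7.69 ± 0.19 against 6.91 ± 0.11, SD; adjusted p = 0.00157) and by 1.19 ± 0.13 in anergy (8.10 ± 0.23, SD; adjusted p = 6.96e-05), and its paralogue Pmm2 did not pass in either. Uap1l1, which is related to the pyrophosphorylase that makes UDP-GlcNAc, rose by 0.97 ± 0.12 in deletion and by 0.80 ± 0.12 in anergy. Uap1, that pyrophosphorylase itself, fell in deletion (-0.43 ± 0.11, adjusted p = 0.0228) and gave -0.33 ± 0.11 in anergy (adjusted p = 0.062). Gnpnat1, which acetylates glucosamine phosphate on the same route, fell in both (-0.40 ± 0.12 in deletion and -0.38 ± 0.12 in anergy), a call held in 8 of 18 settings in each. The phosphoglucomutases Pgm2 in deletion (0.39 ± 0.11, 12 of 18 settings) and Pgm1 in anergy (0.21 ± 0.07, 8 of 18 settings, adjusted p up to 0.177) completed the rises. The median change of the 14 genes was 0.10 in deletion and 0.12 in anergy. Between deletion and anergy 0 of the genes of these lists passed by limma, while 2, Canx and Pmm1, passed in the fit with the replicate number as a block. Canx was lower in deletion (-0.32 ± 0.10, SE; adjusted p = 0.142, and 0.0221 with the block), and so was Pmm1 (-0.40 ± 0.13; adjusted p = 0.136, and 0.0184 with the block). Both also passed after quantile normalization (adjusted p = 0.0116 for Canx and 0.0256 for Pmm1) and with array weights (0.0482 and 0.0191). Pmm1 passed without anergy replicate 3 as well (0.0473).

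**Figure D4:**
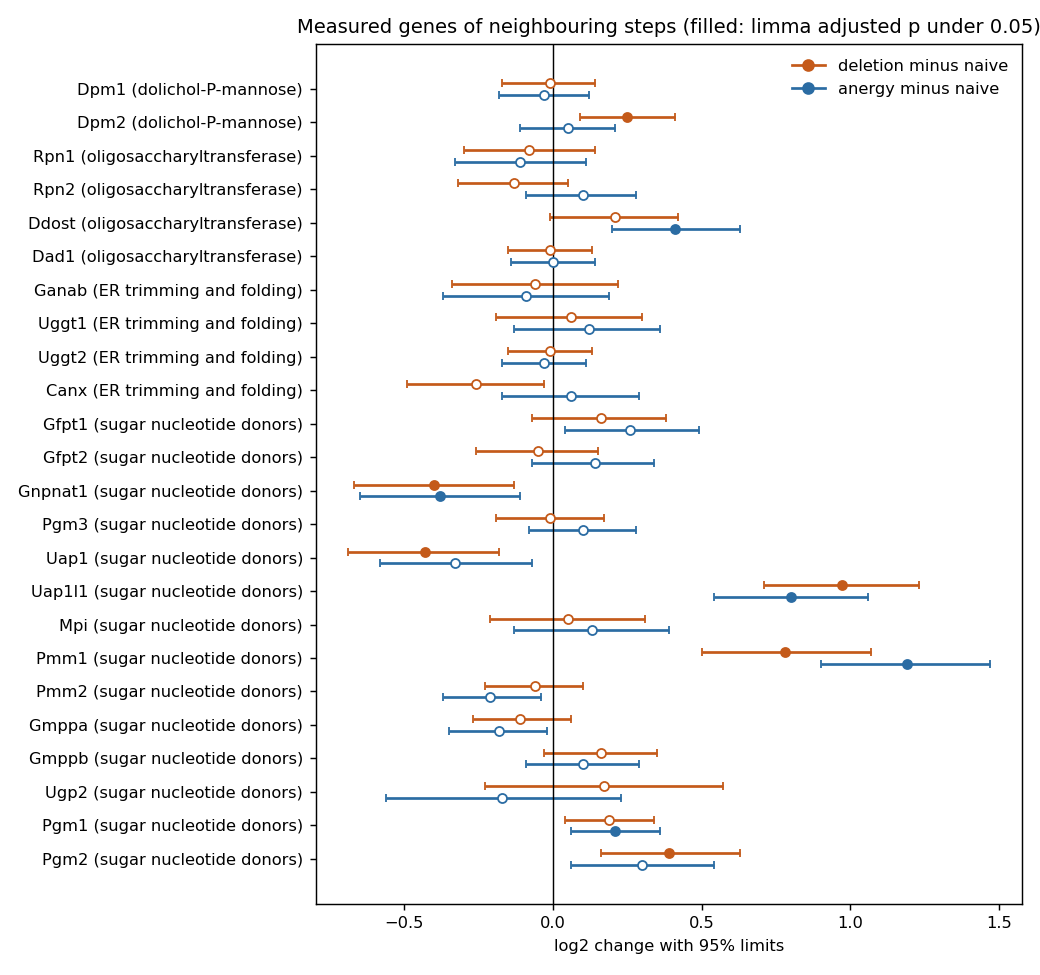
Log2 changes with 95% limits (x axis) of the 24 measured genes of neighbouring steps (y axis) for deletion minus naive (orange) and anergy minus naive (blue), filled where limma's adjusted p was under 0.05. Pmm1 and Uap1l1 lie furthest to the right, between 0.78 and 1.19, and the genes of ER trimming all have open points.

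Among all named genes, those with the profile most like each of the 9 members that passed somewhere were found by the root mean square difference over the 9 arrays, after each gene's own mean was subtracted. For Dpagt1 they were the proteasome subunit Psmb3 (0.039 on the log2 scale, where Dpagt1's own profile had a root mean square of 0.236), riboflavin kinase Rfk (0.051) and the proteasome subunit Psmb5 (0.053). For Alg6 they were the proteasome ATPase Psmc1 (0.091), the core fucosyltransferase Fut8 (0.101) and Pfdn6 (0.106). For Alg8 they were Ddb1 (0.060), the UDP-GlcNAc transporter Slc35a3 (0.071) and Ddost (0.099), and for Alg10b they were Dpagt1 (0.083), Rfk (0.084) and Chst11 (0.094). Alg13 was nearest to Il1rap (0.121), Alg6 (0.123) and Psmb5 (0.125). Among members that fell, Alg1 was nearest to the sialidase Neu1 (0.080), the interleukin receptor Il21r (0.091) and the translation factor Eif5 (0.1), and Alg5 to Alg9 (0.052), Ext2 (0.054) and Ube2g1 (0.054). Alg12 was nearest to Cog3 (0.081), Cpsf7 (0.087) and Zc3h11a (0.089), and Alg2 to Glce (0.125), Acvr2a (0.131) and Abhd16a (0.134). The matches of Alg13, Alg2 and Alg12 were looser, as their own profiles had root mean squares of only 0.276, 0.286 and 0.194. These distances describe 9 arrays in 3 groups and carry no test.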

How the data were processed

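RNA of purified CD8 T cells was measured on 9 single-colour arrays, 3 each of deletion, anergy and naive cells, grouped by their labels. Per the labels' protocols, Trizol RNA gave biotin-labelled cRNA. The authors deposited log2 values, and RMA is the only step in the submitters' processing notes. The labels give no version of RMA and no genome build. The values (1.67 to 13.86) fit that scale and were not centred, with array medians of 4.44 to 4.58. No detection column was used, so no probe set was called absent. The number of arrays limits the precision.

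RefSeq accessions named 963 of 1246 probe sets (77.3%) as 909 genes, through a RefSeq table of GRCm38.p6 used for names. Where a gene had several probe sets, the one with the highest mean was used. Linear models (lmFit and eBayes of limma 3.58.1, under R 4.3.3) took the deposited values of all 9 arrays, without a block and two-sided, with 6 residual and 3.65 prior degrees of freedom. The Benjamini-Hochberg adjustment ran over 1246 probe sets. The fit was tested on simulated data with independent normal noise, of equal spread on all arrays, and rises in deletion alone. Such data hold no array that stands apart, so this test does not cover that case. Alternatives were a replicate block, quantile normalization, median centring, array weights, an intensity trend, fits to 2 groups, a filter on dim probe sets, no moderation, a 2-fold limit, the dimmest probe set of a gene and leaving out each array.

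Deviations of same-numbered deletion and anergy arrays from their group means correlated at 0.195, 0.270 and 0.280 across probe sets. With naive arrays the correlations were -0.154 to 0.274, and differently numbered arrays were not compared. The reported fits did not pair the samples. The alternative with a replicate block used the replicate number of all 9 arrays, naive arrays included.

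All precursor enzyme genes were named whatever their result, as was every gene of the neighbouring lists that passed; other genes of those lists were named after their values were seen, as were the markers. The genes of like profile were the nearest 3 per member. The members and lists were chosen with earlier results of these data known. Promoters came from a RefSeq table and are cut at the gene's start.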

Additional observations from a re-analysis of the deposited data

Results flagged for a closer look

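Among the genes of the neighbouring and marker lists, 3 marker genes passed in the direct test of deletion against anergy in limma. Il2ra, a chain of the high-affinity receptor for interleukin-2, was lower in deletion (change -1.05 on the log2 scale). Its levels were 3.64 ± 0.22 in deletion, 4.69 ± 0.14 in anergy and 3.53 ± 0.06 in naive cells (SD, n = 3 each). Against naive it rose in anergy (1.16, adjusted p = 2.68e-05) and did not pass in deletion (0.11, adjusted p = 0.633). Whether the lower values lie above background was not tested. Pecam1 (0.72) was higher in deletion than in anergy, and the calls of Il2ra and Pecam1 between these groups held in 18 of 18 settings. Cd2 (0.61) was higher too, but its call held in 8 of 18 settings, with adjusted p from 0.0243 to 0.215, and was lost after quantile normalization, in the fit to only the 2 groups, with no moderation, and without deletion replicate 2, any 1 anergy array or any 1 naive array. No precursor enzyme gene met this criterion. Single values within groups of 3 arrays were not tested as outliers.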

How the results depend on the processing

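No change of a precursor gene that passed turned its direction in any setting. In 507 comparisons of a single precursor gene with its reported result, over refits and not the 2-fold limit, 449 kept their side of the threshold, 37 lost a call and 21 gained one. In deletion against naive the 4 genes became 2 after median centring, 8 with array weights, 1 with no moderation and 0 with a 2-fold limit, and 1 to 9 when 1 array was left out. In anergy against naive the 9 genes became 1 with a 2-fold limit and 6 to 9 when 1 array was left out. In deletion against anergy the 0 genes became 1 (Alg8) after quantile normalization, 1 (Alg8) with array weights, and 0 to 1 when 1 array was left out. With a replicate block the counts were 5, 9 and 0 in these comparisons. Each fit to all groups took 1 estimate of spread per probe set from all its arrays. Leaving out an anergy array therefore kept the log2 changes of deletion against naive and moved only their adjusted p. For Alg9 the change was -0.19 with and without anergy replicate 3, and the adjusted p of limma was 0.391 and 0.0496. The cause of the shifts was not tested further. Over all probe sets the 237 and 334 that passed against naive became 59 and 80 with the 2-fold limit. The 42 of deletion against anergy became 11 with that limit, 75 with array weights, 70 after quantile normalization, 26 after median centring, 21 with only the 2 groups, 14 with no moderation and 20 to 44 without 1 array. For sugar nucleotide genes the 5 of deletion became 0 with the 2-fold limit and 2 to 6 without 1 array, and the 4 of anergy became 1 with that limit, 7 with a replicate block and 2 to 5 without 1 array. The other neighbouring lists had 0 or 1 gene past the threshold against naive and 0 to 2 in the alternatives. Between deletion and anergy Canx, Pmm1 and Rpn2 passed after quantile normalization (-0.44, -0.47 and -0.30) and with array weights (-0.40, -0.50 and -0.30). Each precursor gene had 1 probe set, so the choice of probe set changed none of them. Alg6 has no value where dim probe sets were left out.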

Other observations

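Of the 10 precursor genes, 5 were measured by probe sets with the suffix s, which marks probes that can bind more than 1 transcript: Dpagt1, Alg2, Alg6, Alg8 and Alg10b. Of all 1246 probe sets 19.0% had this suffix, and of those 237, 14.8% rose and 14.3% fell in anergy against naive. Of the 5 precursor genes that rose in anergy 4 had such a probe set, Alg13 being the exception, and of the 4 that fell Alg2 had one. Whether other transcripts added to these values was not tested.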
